A study of Homo sapiens with 6 samples.

Results

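Enzymes that activate, elongate, desaturate and re-esterify fatty acids set how readily membrane lipids are peroxidised in ferroptosis, a cell death that depends on iron. The transcripts of 10 of them were followed in CAOV2 human ovarian cancer cells after silencing of TAZ, the Hippo pathway coactivator encoded by WWTR1. The 10 genes were named individually (ACSL1, ACSL3, ACSL4, LPCAT3, MBOAT1, MBOAT2, ELOVL5, FADS1, FADS2 and SCD), each matched 1 row, and together they make up 10 of the 17211 genes in the deposited table. RNA was sequenced from 3 wells in which TAZ was silenced by siRNA (siTAZ) and 3 wells with a non-targeting siRNA (siNT). Every well held 100000 seeded cells, received 100 pmol of siRNA with a lipid reagent for 2 days and was collected on day 3, so the controls carried the same transfection. All samples are listed with 10% serum. The labels describe CAOV2 both as a cell line and as primary cancer cells, and the libraries as biological replicates. Replicate numbers follow the sample titles, whereas the deposited columns carry other numbers, which skip a number within siTAZ. Whether thaws or days differed is not said, so the p-values measure a spread that may be partly technical. A single siRNA catalogue entry was used against TAZ.

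As background, polyunsaturated fatty acids in membrane phospholipids are the substrates of the peroxidation that kills the cell, and monounsaturated fatty acids that displace them are protective. FADS2, ELOVL5 and FADS1 act in turn to turn dietary fatty acids into long polyunsaturated ones, while SCD makes monounsaturated ones. ACSL enzymes attach coenzyme A to the fatty acid, and LPCAT3, MBOAT1 and MBOAT2 then insert the acyl chain into a lysophospholipid. ACSL4 and LPCAT3 are known for handling polyunsaturated chains, and ACSL3, MBOAT1, MBOAT2 and SCD for the monounsaturated side.

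Reads counted in genes numbered 28458503 to 34488196 per siTAZ library and 25478595 to 28928432 per siNT library. Mitochondrial transcripts took 2.85% to 3.91% of them. WWTR1 had values of 242, 277 and 280 in siTAZ, against 4359, 4217 and 4258 in siNT (log2 fold change -4.0, limma adjusted p = 8e-17), so the targeted transcript went the way of the labels. The 6 epithelial markers, EPCAM, CDH1 and the keratins KRT7, KRT8, KRT18 and KRT19, were all present and summed to 92338 to 100591 in siTAZ and 96330 to 104749 in siNT. Behind that sum all 6 passed the test: EPCAM, CDH1, KRT19 and KRT8 rose 2.72-fold, 2.27-fold, 1.59-fold and 1.12-fold, and KRT7 and KRT18 fell 2.66-fold and 1.23-fold. Their part in the results was not tested. Markers of ovarian and Muellerian epithelium were scarce: WT1 and SOX17 were not listed, and the other 4 (PAX8, MUC16, MSLN and FOLR1) summed to 44.4 to 56.1 in siTAZ and 35.6 to 66.3 in siNT. Of those 4, MSLN and FOLR1 rose 2.91-fold and 2.75-fold from very low values, and PAX8 and MUC16 did not pass. Of 6 leukocyte markers 3 were listed, with sums of 175 to 193 in siTAZ and 130 to 141 in siNT and no row for PTPRC. Of those 3, CD14 rose 1.85-fold, and CD68 and ITGAM did not pass. Of 6 endothelial markers 0 were listed. Of 6 fibroblast markers 5 were listed, DCN being the exception, with sums of 6577 to 7465 in siTAZ and 5605 to 6387 in siNT. Within these sums COL3A1 and PDGFRA rose 2.13-fold and 1.36-fold and the scarce COL1A2 fell 9.69-fold. LUM and COL1A1 did not pass. The part of the fibroblast markers in the results was not tested either.

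Each level is a deposited value, a read number scaled by its library's size factor, with n = 3 libraries per group. All 10 genes passed the filter on low values, with at least 194 reads in every library. Of these 10, 5 rose (MBOAT1, ACSL1, ACSL4, FADS2 and SCD), 2 fell (ELOVL5 and LPCAT3) and 3 did not pass (ACSL3, MBOAT2 and FADS1). The question was which of these transcripts change when TAZ is silenced. The test was limma, a linear model with variances moderated across genes, on log2(value + 1) over all 17204 genes with a mean of at least 1, at an adjusted p under 0.05. The comparison called 55.8% of all genes tested, 28.3% higher and 27.5% lower, and 66.9% of the 9632 genes at least as abundant as ACSL1, the scarcest of the 10. A count of 7 of 10 is therefore near the background and is no result about the group. Their median log2 fold change was 0.17, against -0.00 over all genes tested, and their median absolute log2 fold change was 0.34, against 0.31. The libraries of the groups did not overlap for the 7 called genes, as for 61.4% of all genes tested. Changes of at least 2-fold were found for MBOAT1 and ELOVL5, and for 10.6% of all genes tested. In bulk RNA, fewer cells with a transcript and less of it per cell cannot be told apart.

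**Figure D1:**
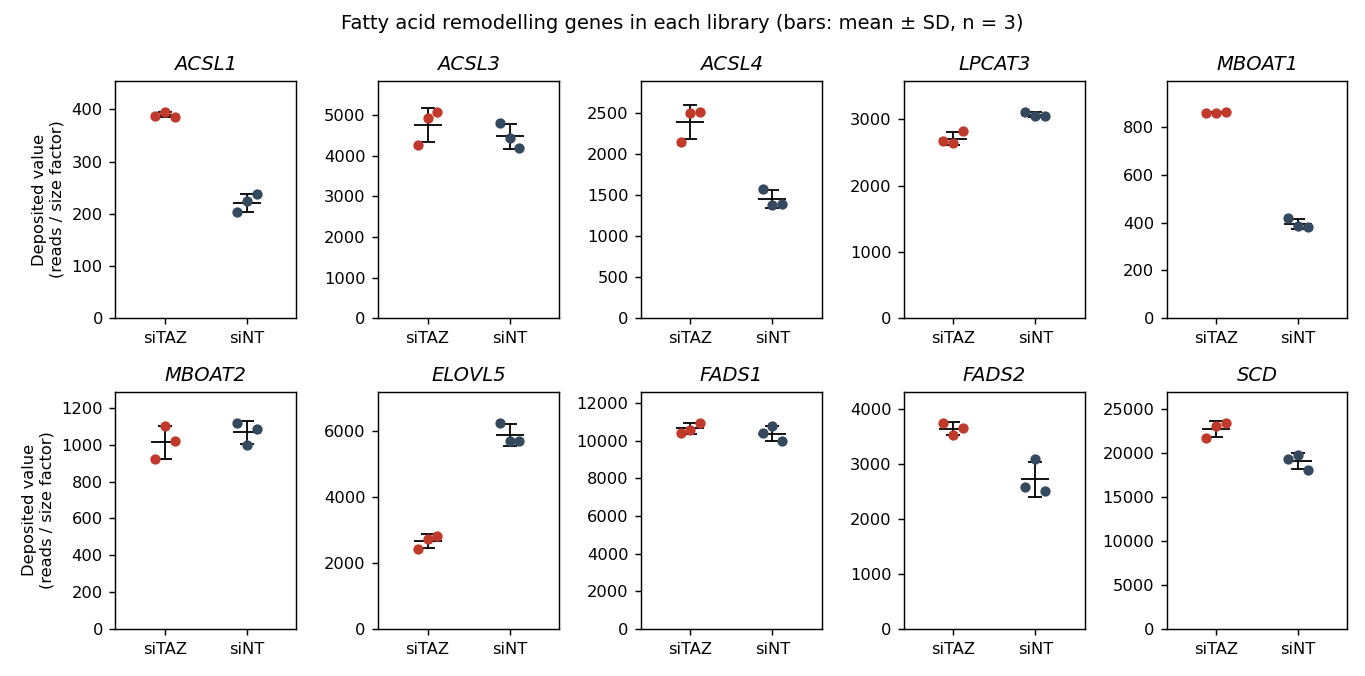
Deposited value (reads divided by size factor, linear axis from 0) of each gene in the 3 siTAZ and 3 siNT libraries, with bars for mean ± SD. ELOVL5 sits at 2430 to 2825 in siTAZ and 5680 to 6246 in siNT, MBOAT1 at 859 to 864 in siTAZ and 382 to 418 in siNT, while the groups overlap for ACSL3, MBOAT2 and FADS1.

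**Figure D2:**
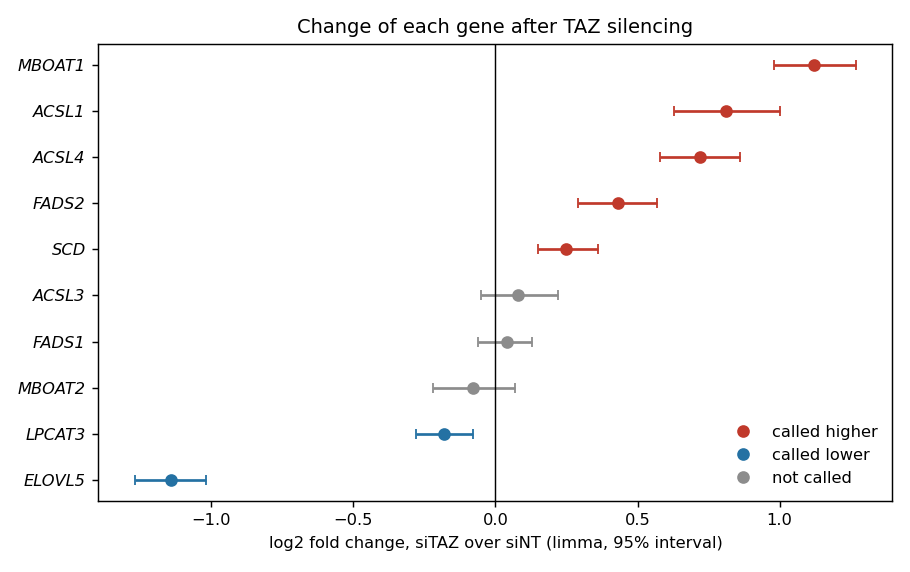
Log2 fold change of each gene, siTAZ over siNT, from limma with its 95% interval. The intervals run from -1.27 to -1.02 for ELOVL5 and 0.98 to 1.27 for MBOAT1, and those of ACSL3, FADS1 and MBOAT2 include 0.

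The elongase and the desaturases of polyunsaturated fatty acid synthesis did not move together. ELOVL5 (ENSG00000012660), which lengthens polyunsaturated acyl-CoAs between the desaturation steps, had values of 2430, 2729 and 2825 in siTAZ, against 6246, 5681 and 5680 in siNT. Each siTAZ library was below every siNT library. The mean was 2661 ± 206 in siTAZ and 5869 ± 327 in siNT, a fall of 2.21-fold (log2 fold change -1.14, SE 0.06, limma adjusted p = 7.2e-11), and 91.1% of all genes tested had a smaller absolute change.

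FADS2 (ENSG00000134824), the desaturase that opens the pathway, had values of 3751, 3531 and 3650 in siTAZ, against 2573, 3085 and 2509 in siNT. All siTAZ libraries were higher, and siNT replicate 2 lay well above the other siNT libraries. FADS2 rose 1.34-fold, with means of 3644 ± 110 in siTAZ and 2722 ± 316 in siNT (log2 fold change 0.43, SE 0.07, limma adjusted p = 3.1e-05). FADS1 (ENSG00000149485), the desaturase that acts after the elongation and yields arachidonic acid, had values of 10414, 10567 and 10947 in siTAZ, against 10404, 10760 and 9950 in siNT. The groups overlapped and FADS1 did not pass the test (log2 fold change 0.04, limma adjusted p = 0.5), with a 95% interval of 0.96 to 1.10 for the fold. That interval lies below the 1.22 to 1.48 found for FADS2.

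FADS1 and FADS2 are head-to-head neighbours whose RefSeq starts overlap: on GRCh38.p14 chromosome 11 the FADS2 starts lie 800 and 599 bases inside FADS1, on the opposite strand. In GENCODE release 29 the exons of the pair share 490 bases, which is 4.79% of the exon length of FADS1 and 4.44% of that of FADS2. The library kit keeps strand, but whether the counting used strand is not given in the sources used, so reads in those bases cannot be assigned with certainty. Promoter windows of 250 bases before to 50 after the start are shown for this pair, because only one of these neighbours passed the test, and for ELOVL5 and SCD, the gene with the largest fall and the most abundant gene. They are RefSeq sequence of GRCh38.p14, 5′ to 3′ on the gene's strand, for ELOVL5 at chr6:53348901-53349200 (minus), FADS1 at chr11:61816954-61817253 (minus), FADS2 at chr11:61816154-61816453 (plus) and SCD at chr10:100346983-100347282 (plus). Capitals mark GGAATG (TEAD factors), TCACNCCAC (sterol regulatory element), CACGTG (E-box) and CCAAT (NF-Y), read on both strands, and no matches overlapped each other.
ELOVL5: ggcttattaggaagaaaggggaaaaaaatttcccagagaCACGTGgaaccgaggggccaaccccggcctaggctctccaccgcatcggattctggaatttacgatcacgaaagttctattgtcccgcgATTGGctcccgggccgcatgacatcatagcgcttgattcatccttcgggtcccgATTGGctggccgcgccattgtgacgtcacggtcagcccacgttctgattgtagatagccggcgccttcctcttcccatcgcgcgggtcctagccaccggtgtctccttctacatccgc
FADS1: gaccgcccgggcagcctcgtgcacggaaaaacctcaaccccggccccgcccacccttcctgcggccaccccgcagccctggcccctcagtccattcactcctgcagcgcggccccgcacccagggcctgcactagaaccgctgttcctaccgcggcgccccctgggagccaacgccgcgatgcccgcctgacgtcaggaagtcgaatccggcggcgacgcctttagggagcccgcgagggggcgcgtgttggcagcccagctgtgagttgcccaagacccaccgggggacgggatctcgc
FADS2: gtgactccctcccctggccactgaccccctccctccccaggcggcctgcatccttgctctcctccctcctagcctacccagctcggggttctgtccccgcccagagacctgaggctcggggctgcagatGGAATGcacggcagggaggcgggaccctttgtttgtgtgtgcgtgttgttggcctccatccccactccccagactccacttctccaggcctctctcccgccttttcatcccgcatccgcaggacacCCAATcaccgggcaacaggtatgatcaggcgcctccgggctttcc
SCD: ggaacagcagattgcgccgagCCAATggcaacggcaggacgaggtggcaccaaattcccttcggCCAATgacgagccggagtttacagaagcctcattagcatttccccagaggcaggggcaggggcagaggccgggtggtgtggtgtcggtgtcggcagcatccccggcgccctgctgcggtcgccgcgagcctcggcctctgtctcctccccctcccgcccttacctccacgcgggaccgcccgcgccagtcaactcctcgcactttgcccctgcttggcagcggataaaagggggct

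TEAD factors are the DNA-binding partners of TAZ, and SREBP factors, which bind sterol regulatory elements beside NF-Y, drive desaturase genes. The promoter table held 14 windows for 9 of the 10 genes, 5 of them for ACSL1 and 2 for FADS2. GGAATG or its complement occurred in windows of ACSL1, ACSL3 and FADS2, that is in 3 of the 14 windows, against 14% of all 35116 windows. In the FADS2 window shown it begins 121 bases before the start. The other FADS2 window, at chr11:61815953-61816252, holds none of the 4 motifs, and neither the ELOVL5, FADS1 nor SCD window holds GGAATG or its complement. TCACNCCAC occurred in 1 of the 14 windows, of ACSL1, against 1.13% of all windows. CCAAT occurred in 6 of 14, against 34.6%, with 2 matches each in the ELOVL5 and SCD windows, and CACGTG in 1, that of ELOVL5, against 7.26%. The FADS1 window holds none of the 4 motifs. These matches describe letters in short windows, and nothing was measured on binding.

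SCD (ENSG00000099194), which makes oleic and palmitoleic acid from saturated precursors, was the most abundant of the 10 genes. Its values were 21736, 23130 and 23486 in siTAZ, against 19396, 19847 and 18130 in siNT. The groups did not overlap, and SCD rose 1.19-fold, with means of 22784 ± 925 in siTAZ and 19124 ± 890 in siNT (log2 fold change 0.25, SE 0.05, limma adjusted p = 0.0003). Of all genes tested, 42.7% had a smaller absolute change. Its relative SCD5 is given with the other desaturation genes.

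Among the acyl-CoA synthetases, the one known for polyunsaturated chains and the general isoform rose. ACSL4 (ENSG00000068366), which prefers arachidonic and adrenic acid, had values of 2149, 2506 and 2513 in siTAZ, against 1578, 1383 and 1386 in siNT. All siTAZ libraries were higher, siTAZ replicate 1 the least so (log2 fold change 0.72, SE 0.07, limma adjusted p = 1.2e-07), and the 95% interval of the fold was 1.49 to 1.82. ACSL1 (ENSG00000151726), which supplies acyl-CoA for triglyceride synthesis and oxidation, had values of 388, 395 and 386 in siTAZ, against 203, 224 and 237 in siNT. The siTAZ libraries lay close together above all siNT libraries, a rise of 1.76-fold from means of 390 ± 4.49 in siTAZ and 221 ± 17 in siNT (log2 fold change 0.81, SE 0.09, limma adjusted p = 4.3e-07).

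ACSL3 (ENSG00000123983), an isoform of the endoplasmic reticulum and lipid droplets that activates monounsaturated fatty acids, had values of 4274, 4927 and 5078 in siTAZ, against 4815, 4435 and 4200 in siNT. The groups overlapped, and ACSL3 did not pass the test (log2 fold change 0.08, limma adjusted p = 0.27), with a 95% interval of 0.97 to 1.16 for the fold. Without siTAZ replicate 1, its lowest siTAZ library, it passed as higher (log2 fold change 0.16, limma adjusted p = 0.013; range 0.013 to 0.69 over 17 alternatives). Across genes, siTAZ replicate 1 stood apart from the other siTAZ libraries. The chi-square of reads per degree of freedom was 8.14 and 7.18 against siTAZ replicates 2 and 3, and 2.81 between those. In siNT, replicate 1 stood apart likewise (6.34 and 5.21, against 2.65). Within each library, the ratio of ACSL4 to ACSL3 does not depend on the size factor. It was 0.503, 0.509 and 0.495 in siTAZ, against 0.328, 0.312 and 0.33 in siNT. The ratio was 1.55-fold higher in siTAZ with no overlap, and its exact permutation p of 0.10 is the smallest that 3 against 3 libraries allow.

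Of the lysophospholipid acyltransferases, MBOAT1 rose, LPCAT3 fell slightly and MBOAT2 did not pass. MBOAT1 (ENSG00000172197), an acyltransferase reported in human cancer cells to suppress ferroptosis by putting monounsaturated chains into phosphatidylethanolamine, had values of 859, 860 and 864 in siTAZ, against 418, 385 and 382 in siNT. The siTAZ libraries differed from each other by far less than the siNT libraries and lay above all of them. MBOAT1 had the largest rise of the 10 genes (log2 fold change 1.12, SE 0.07, limma adjusted p = 4e-10), with a 95% interval of 1.98 to 2.40 for the fold, and 90.8% of all genes tested had a smaller absolute change. Its entry in the promoter table was missing.

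MBOAT2 (ENSG00000143797), its close relative with the same reported activity, had values of 921, 1100 and 1023 in siTAZ, against 1120, 1000 and 1083 in siNT. The groups overlapped and it did not pass the test (log2 fold change -0.08, limma adjusted p = 0.37), with a 95% interval of 0.86 to 1.05 for the fold. The ratio of MBOAT1 to MBOAT2 was 0.933, 0.782 and 0.845 in siTAZ, against 0.373, 0.385 and 0.353 in siNT. It was 2.30-fold higher in siTAZ, and the groups did not overlap.

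LPCAT3 (ENSG00000111684), which inserts polyunsaturated chains into phosphatidylcholine and phosphatidylethanolamine, had values of 2667, 2644 and 2816 in siTAZ, against 3109, 3042 and 3042 in siNT. The siTAZ libraries were all lower, by a small amount. The means were 2709 ± 93.4 in siTAZ and 3064 ± 38.7 in siNT (log2 fold change -0.18, SE 0.05, limma adjusted p = 0.0043). In GENCODE release 29, 65.6% of the exon length of LPCAT3 lies over exons of EMG1, a ribosome biogenesis gene, on the opposite strand. EMG1 averaged 1992 ± 84.7 in siTAZ and 2766 ± 119 in siNT (log2 fold change -0.47, limma adjusted p = 8.4e-07). Since the use of strand in counting is not given, reads of the pair cannot be told apart with certainty and the fall of LPCAT3 is uncertain.

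The other pairs were compared within libraries in the same way. The ratio of LPCAT3 to MBOAT1 was 3.1, 3.07 and 3.26 in siTAZ, against 7.44, 7.91 and 7.97 in siNT, and was therefore 2.47-fold lower. That ratio carries the uncertainty of LPCAT3 from its overlap with EMG1. The ratio of SCD to ELOVL5 was 8.94, 8.48 and 8.31 in siTAZ, against 3.11, 3.49 and 3.19 in siNT, which is 2.63-fold higher. The ratio of FADS1 to FADS2 was 2.78, 2.99 and 3 in siTAZ, against 4.04, 3.49 and 3.97 in siNT. It was 1.31-fold lower without overlap. The ratio of SCD to FADS2 was 5.8, 6.55 and 6.43 in siTAZ, against 7.54, 6.43 and 7.23 in siNT, and there the groups met. These ratios are of values not divided by length, so they compare the groups and not the abundance of the enzymes. Of the 6 ratios, 5 had an exact two-sided permutation p of 0.10, and SCD over FADS2 had an exact permutation p of 0.30. Adjusted over the 6 pairs by the Benjamini-Hochberg method, the exact permutation p-values were 0.12 and 0.30.

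**Figure D3:**
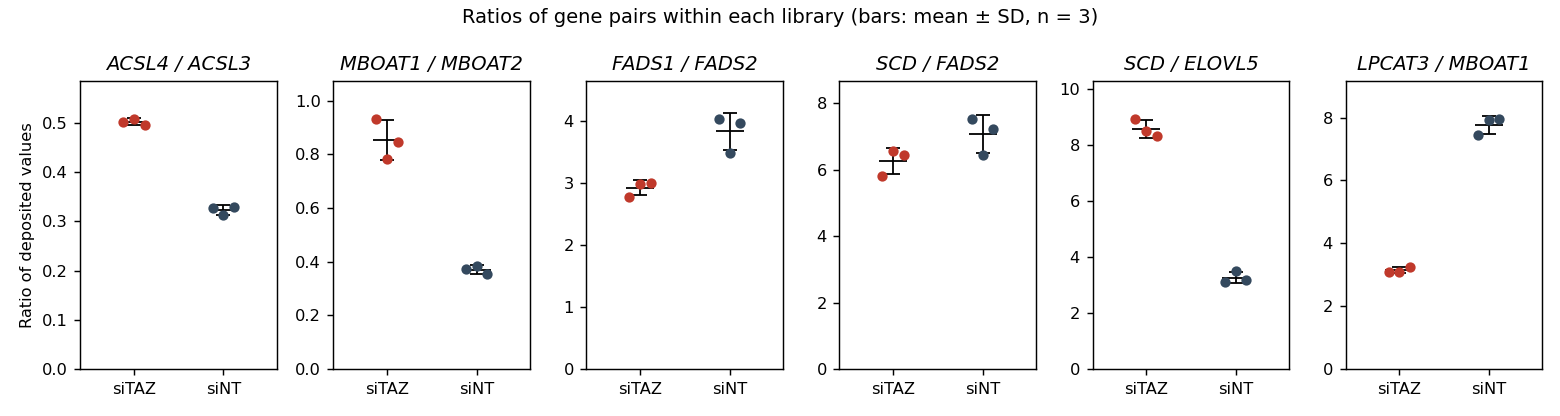
Ratio of the deposited values of 6 gene pairs within each library, siTAZ and siNT, with bars for mean ± SD (linear axes from 0). LPCAT3 over MBOAT1 lies at 3.07 to 3.26 in siTAZ and 7.44 to 7.97 in siNT, and the groups overlap for SCD over FADS2.

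Per kilobase of exon in GENCODE release 29, the level of SCD was the highest of the 10 genes, at 4249 ± 172 in siTAZ and 3567 ± 166 in siNT. ACSL1 was the lowest, at 62.0 ± 0.715 in siTAZ and 35.2 ± 2.71 in siNT. In siTAZ the order below SCD was FADS1 at 1040 ± 26.8, ELOVL5 at 698 ± 53.9, ACSL3 at 657 ± 59.1, LPCAT3 at 573 ± 19.8 and MBOAT1 at 480 ± 1.41. ACSL4 at 372 ± 32.5, FADS2 at 330 ± 9.99 and MBOAT2 at 115 ± 10.2 followed. There the ranges over libraries overlapped for ELOVL5 and ACSL3, for ACSL3 and LPCAT3, and for ACSL4 and FADS2. Within libraries, ELOVL5 was above ACSL3 and ACSL3 above LPCAT3 in 3 of 3, and ACSL4 above FADS2 in 2 of 3. In siNT the level per kilobase was 1539 ± 85.7 for ELOVL5, 1014 ± 39.7 for FADS1, 649 ± 8.2 for LPCAT3 and 619 ± 42.8 for ACSL3. FADS2 at 247 ± 28.6, ACSL4 at 226 ± 17.4 and MBOAT1 at 220 ± 11.1 followed, and MBOAT2 came next at 121 ± 6.97. The ranges overlapped for LPCAT3 and ACSL3 and among FADS2, ACSL4 and MBOAT1. Within siNT libraries LPCAT3 was above ACSL3 and FADS2 above ACSL4 in 2 of 3, and ACSL4 above MBOAT1 in 3 of 3. Much of this order depends on the gene model, and the place of LPCAT3 may also depend on how reads shared with EMG1 were counted. Per kilobase of the longest transcript instead, LPCAT3 at 934 in siTAZ stood above ELOVL5 at 864 and ACSL3 at 838, and FADS2 at 718 above MBOAT1 at 480 and ACSL4 at 448. By the same measure FADS1 at 2292 in siNT stood above ELOVL5 at 1905, and FADS2 at 537 well above ACSL4 at 272 and MBOAT1 at 220. With either length SCD was the highest, ACSL1 the lowest and MBOAT1 above MBOAT2 in both groups. For SCD (5.36 kb) and MBOAT1 (1.79 kb) both lengths are the same, so the choice could move only the genes compared with them.

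The other genes of fatty acid metabolism were read from 8 lists of 124 genes, 112 of which could be tested. Of those, 49 rose, 20 fell and 43 did not pass. The median log2 fold change was 0.13. That is 61.6% called, against 55.8% of all genes tested (28.3% higher and 27.5% lower), the background for each list below. Among genes at least as abundant as ACSL1 the share called was 66.9%, so 61.6% is near the background.

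De novo fatty acid synthesis and its regulators had 13 of 19 genes higher, 3 lower and 3 not passing, with a median log2 fold change of 0.38. That is 84.2% called, in a list that holds more regulators than enzymes. Of the enzymes other than ACACB, FASN rose 1.16-fold, ACLY fell 1.17-fold and MCAT did not pass, while ACACA had no named row. The regulators MLXIPL, a glucose-responsive transcription factor, and PPARA, a nuclear receptor for fatty acids, rose 2.75-fold (163 ± 17.9 in siTAZ, 59.2 ± 3.42 in siNT) and 1.92-fold. ACACB, an acetyl-CoA carboxylase of mitochondria, rose 1.90-fold, and MBTPS1, a protease that activates SREBP, rose 1.35-fold. SREBF2, an SREBP gene, averaged 6216 ± 101 in siTAZ and 4511 ± 289 in siNT (log2 fold change 0.46, limma adjusted p = 6e-07). SREBF1, the SREBP gene best known for activating SCD and FADS genes, averaged 7404 ± 60.2 in siTAZ and 6715 ± 447 in siNT (log2 fold change 0.14, limma adjusted p = 0.022). That call of SREBF1 was lost without siTAZ replicate 2 (limma adjusted p = 0.066), siNT replicate 1 (0.095) or siNT replicate 3 (0.087). With replicate number as a further term it was lost too (limma adjusted p = 0.078). Over the 17 alternatives its adjusted p lay between 0.0028 and 0.095.

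Among 8 other acyl-CoA synthetases, 3 rose, 2 fell and 3 did not pass. SLC27A2, a very long chain synthetase, averaged 932 ± 9.46 in siTAZ and 378 ± 44.3 in siNT, a rise of 2.47-fold. SLC27A3 rose 1.65-fold. SLC27A5, a bile acid and very long chain synthetase, fell 2.00-fold, and SLC27A4 fell 1.17-fold. Of 14 other glycerolipid acyltransferases, 4 rose, 4 fell and 6 did not pass (median log2 fold change 0.00). LPGAT1, a lysophospholipid acyltransferase, rose 1.66-fold (3735 ± 234 in siTAZ, 2255 ± 75.9 in siNT), and LPCAT1, which prefers saturated chains, rose 1.27-fold. GPAT3 and GPAM, which start glycerolipid synthesis, fell 1.64-fold and 1.31-fold. The 4 lower became 2 without siTAZ replicate 2, siTAZ replicate 3 or siNT replicate 2.

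Of 15 other elongation and desaturation genes, 6 rose, 1 fell and 8 did not pass. CYB5R3, the reductase that passes electrons to the desaturases, averaged 10360 ± 576 in siTAZ and 7286 ± 349 in siNT, a rise of 1.42-fold, and HACD3, a dehydratase of the elongation cycle, rose 1.31-fold. ELOVL7, a scarce elongase, rose 2.02-fold. ELOVL1, an elongase of very long saturated chains, was the gene that fell, by 1.26-fold, and without siTAZ replicate 1 the number lower was 2. SCD5, the second human stearoyl-CoA desaturase, was named after its values were seen: it was scarce, at 26.2 in siTAZ and 12.8 in siNT. It passed as higher (limma adjusted p = 0.012), although the groups overlapped.

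Of 18 genes of fatty acid oxidation, 10 rose, 0 fell and 8 did not pass in limma. At an unadjusted p under 0.05, 0 fell as well, and edgeR called 0 lower, whereas without siTAZ replicate 1 limma called 1. DECR1, a mitochondrial reductase needed to oxidise polyunsaturated chains, averaged 1893 ± 90.1 in siTAZ and 1031 ± 46.4 in siNT, a rise of 1.84-fold. Its peroxisomal relative DECR2 rose 1.43-fold, CPT2 of the carnitine shuttle 1.40-fold and HSD17B4 of peroxisomal oxidation 1.39-fold.

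Of 20 genes of fatty acid release, uptake and storage, 7 rose, 5 fell and 8 did not pass. PLIN4, a lipid droplet coat protein, averaged 284 ± 27.7 in siTAZ and 30.9 ± 1.03 in siNT, a rise of 9.19-fold, and DGAT2, which makes triglyceride, rose 1.81-fold. LIPE, the hormone-sensitive lipase, rose 1.36-fold, and the coat protein PLIN2 fell 1.43-fold. The 5 lower became 3 without siTAZ replicate 3 or siNT replicate 3.

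Of 10 genes of ether lipid synthesis, which make the alkyl and vinyl ether phospholipids that can also carry polyunsaturated chains, 4 rose, 3 fell and 3 did not pass. CHPT1 and SELENOI, which attach head groups, rose 1.28-fold and 1.16-fold, although the groups overlapped for SELENOI. CEPT1 fell 1.29-fold and FAR1, which supplies the fatty alcohol, fell 1.25-fold. The 4 higher became 2 without siTAZ replicate 3. Of 8 genes of lipid peroxidation, 2 rose, 2 fell and 4 did not pass, and the lipoxygenase genes ALOX5, ALOX12, ALOX15 and ALOX15B were not listed. ALOX12B, a lipoxygenase of skin, averaged 44.4 ± 1.64 in siTAZ and 10.7 ± 1.25 in siNT. PTGS2, a cyclooxygenase often used as a ferroptosis marker, averaged 636 ± 31.2 in siTAZ and 1087 ± 94.5 in siNT, a fall of 1.71-fold, and PEBP1, a partner of lipoxygenases, fell 1.12-fold. PTGS1, the other cyclooxygenase, averaged 11.1 ± 3.27 in siTAZ and 4.38 ± 0.81 in siNT (log2 fold change 1.14, limma adjusted p = 0.021). That call of PTGS1 was lost without siTAZ replicate 2 (limma adjusted p = 0.12), siTAZ replicate 3 (0.050) or siNT replicate 3 (0.052) and in DESeq2 (adjusted p = 0.087). Its adjusted p lay between 0.017 and 0.12 over 16 alternatives. The 2 higher became 1 without siTAZ replicate 2 or siNT replicate 3.

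**Figure D4:**
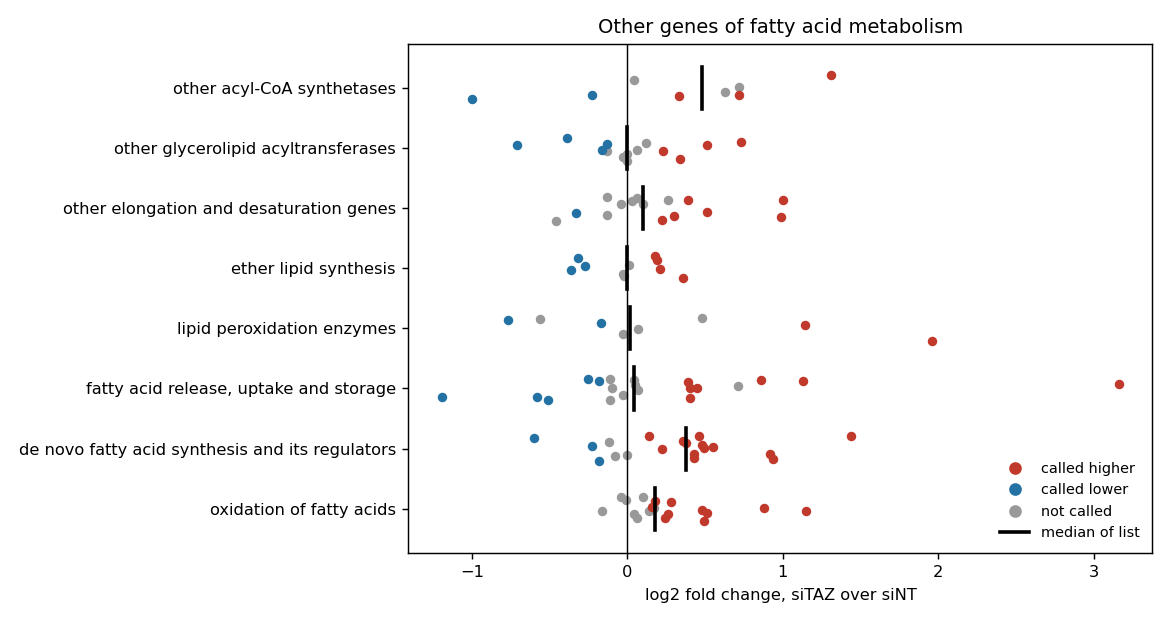
Log2 fold change, siTAZ over siNT, of the 112 tested genes in 8 lists of fatty acid metabolism, coloured by limma's call, with a black bar at each list's median. The median is 0.38 for de novo synthesis and its regulators and 0.00 for the other glycerolipid acyltransferases, and the farthest point to the right is PLIN4 at 3.16.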

How the data were processed

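RNA sequencing libraries of 6 samples were compared. Per the labels' protocols, 1 µg of total RNA went into a stranded poly(A) kit. The submitters' processing notes name build hg19 and the tools HISAT2, HTSeq, DESeq2 and FastQC. The versions, annotation, strand setting and gene filter were not given in the sources used. The deposited values are a signal, reads divided by 1 size factor per library by the authors (0.8275 to 1.173): 100% were whole multiples of 1 step within 0.001 of a read, which gave back the reads. Symbols were matched through Ensembl identifiers (16662 of 17211 genes) and GENCODE release 29 (81), and 468 stayed unnamed.

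Limma 3.58.1 (R 4.3.3) with an intensity trend was fitted to log2(value + 1) with group as the only term, with Benjamini-Hochberg adjustment over all genes tested. Fold changes in log2 are on that scale, which understates low genes, and other folds are ratios of means. Intervals are limma's at 95%. The count tests edgeR 4.0.16 and DESeq2 1.42.0 and voom ran on the recovered reads, tested like limma on simulated data. The simulation changed far fewer genes than were called here, so it gives no error rate for this comparison. Deviations from group means correlated between same-numbered libraries at -0.14, -0.08 and 0.02 (genes with a mean of at least 10), so no pairing by number was seen. With 3 libraries per group a weak pairing could be missed. The 10 genes, the lists and the tests were chosen with earlier results of these data known. Named were the 10 genes, WWTR1, SREBF1, SREBF2 and up to 4 called genes per list with the smallest p. EMG1, SCD5, the markers and the genes without a row were named in addition, as were ACLY, FASN and MCAT after their values were seen. Exon lengths are from GENCODE release 29 on GRCh38, promoters from RefSeq GRCh38.p14, neither being the authors' build.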

Additional observations from a re-analysis of the deposited data

How the results depend on the processing

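Over 17 alternatives (other pseudocounts, filters and scalings, edgeR, DESeq2, voom, the replicate block and each library left out), the 5 rises and 2 falls among the 10 genes kept their direction and their call, and no gene reversed. Their log2 fold changes ran from -1.19 to -1.08 for ELOVL5, 1.10 to 1.18 for MBOAT1, 0.75 to 0.87 for ACSL1, 0.68 to 0.79 for ACSL4, 0.37 to 0.52 for FADS2, 0.21 to 0.31 for SCD and -0.21 to -0.12 for LPCAT3. The largest adjusted p of LPCAT3 was 0.034, but none of the alternatives addresses its overlap with EMG1, so its fall stays uncertain. Of the genes that did not pass, ACSL3 passed without siTAZ replicate 1, and MBOAT2 and FADS1 in 0 of the 17, with adjusted p of 0.16 to 0.92 and 0.097 to 0.91. WWTR1 ran from -4.04 to -3.94. With a replicate block, 4439 genes were called higher and 4262 lower, against 4874 and 4730 without it. The block left the calls of the 10 genes as they were, and that of SREBF1 was lost (limma adjusted p = 0.078). No pairing by number was seen, as in no case did a siTAZ library correlate best with the siNT library of its own number. A weak pairing could be missed with 3 libraries per group. With each library left out, 4298 to 4885 genes were called higher and 4203 to 4789 lower. Total count scaling moved the median of all genes by 0.053 and gave 5561 higher and 4045 lower, and in the list of fatty acid oxidation 14 higher in place of 10. The 6 ratios kept their direction with pseudocounts of 0.5 and 10, under the replicate block and with each library left out. In the lists, the count of 4 lower acyltransferases became 2 under total count scaling and under the replicate block, the 2 higher peroxidation enzymes became 1 with the CPM filter and in DESeq2, and the 5 lower genes of release and storage became 3 in DESeq2; the cause was not tested.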
